A study of Caenorhabditis elegans with 4 samples.

Results

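The GATA factors of the epidermis and the intestine are described here in adult Caenorhabditis elegans exposed to a low dose of arsenite. The 8 genes, elt-1, elt-2, elt-3, elt-6, elt-7, egl-18, end-1 and end-3, were chosen by name as the GATA factors that specify or maintain these tissues, and all 8 were found among the 19912 genes of the deposited table. The rule for choosing them used no expression value, although earlier results of these data were known when it was written. The study exposed wild-type N2 worms on agar plates either to 100 nM arsenite or to the solvent water (0 nM), with heat-inactivated bacteria as food, and sequenced messenger RNA of whole adults 48 h after the L4 stage. There were 2 arsenite libraries and 2 control libraries. No source used here states that replicates were separate cultures, so each p-value below is a measure of how these particular libraries scattered, and that scatter may be technical.

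GATA factors are transcription factors with a zinc finger that binds the DNA letters GATA. In the early embryo of C. elegans, SKN-1 acts through MED-1 and MED-2 to turn on END-1 and END-3, which commit the E cell to endoderm and start ELT-2 and ELT-7, and these keep the intestine differentiated through adult life. In the skin, ELT-1 specifies the epidermis in the embryo and ELT-3 acts below it in epidermal cells, whereas EGL-18 (also called ELT-5) and ELT-6 act in the seam cells along each side and are targets of Wnt signalling.

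Across the 8 genes no difference between arsenite and control passed the threshold. None was called at an adjusted p under 0.05 by edgeR's quasi-likelihood test, and none had an unadjusted p under 0.05. By the same test 0% of the 13776 genes tested were called, while 2.16% had an unadjusted p under 0.05 and were higher in arsenite, and 5.05% had one and were lower. The exact test of edgeR called 1.01% of all genes and 0 of the 8. Of the 13776 genes, DESeq2 called 8 higher and 22 lower. The likelihood ratio test of edgeR called 58 higher and 99 lower. Both called 0 of the 8. The 95% interval of the log2 fold change stayed within 1 on either side of 0 for all 8 genes, so that a change of more than 2-fold lay outside each interval. Their median log2 fold change was -0.05, against 0.01 over all genes tested.

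Each library had between 30583832 and 35218389 reads behind its normalized values. The sum of the gene counts was larger, 44263387 to 50472338, since the table adds up the transcripts of each gene, and reads common to several of them were added repeatedly. Genes called over the whole table depended on single libraries. With arsenite replicate 1 left out, 100 genes were higher and 58 lower, and with control replicate 1 left out, 121 were higher and 72 lower. With arsenite replicate 2 left out the counts were 6 higher and 8 lower, and with control replicate 2 left out 1 higher and 1 lower. The 8 GATA factors held no called gene in any of these fits. Markers of the adult's intestine, epidermis, muscle, neurons, pharynx and germline were present in all 4 libraries. In bulk RNA of whole worms, fewer cells of a type and less RNA per cell cannot be told apart.

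The levels of the 8 genes were compared in RPKM, the reads divided by transcript length and by the mapped reads of the library. On this scale levels of different genes can be set side by side. For elt-1 and elt-7, with 2 transcripts each, the reads of both transcripts were divided by their summed length. The level of these genes thus depends on the transcript taken. In control libraries the order of mean RPKM was egl-18, elt-1, elt-3, elt-2, elt-7, elt-6, end-1 and end-3. The epidermal and seam factors egl-18, elt-1 and elt-3 held the top of the order, the seam factor elt-6 stood below both intestinal factors, and the transient endoderm specifiers came last. At the top, egl-18 averaged 51.8 ± 2.95 RPKM in arsenite and 53.7 ± 0.374 RPKM in control (SD, n = 2 each). In the middle, elt-2 averaged 9.27 ± 0.540 RPKM in arsenite and 10.7 ± 0.705 RPKM in control (SD, n = 2 each). At the lower end, end-3 averaged 0.568 ± 0.133 RPKM in arsenite and 0.551 ± 0.209 RPKM in control (SD, n = 2 each). Over all 4 libraries the ranges of elt-1 and elt-3 overlapped, as did those of elt-7 and elt-6, through their arsenite values. Among the control libraries alone neither pair overlapped by gene RPKM. There elt-1 had 23.02 and 23.2 RPKM, above 20.5 and 21.3 for elt-3. Likewise elt-7 had 7.14 and 8.66 RPKM, above 7.08 and 6.40 for elt-6. By the longer transcripts both pairs overlapped in control, with 20.7 and 20.8 RPKM for elt-1 and 6.79 and 8.18 for elt-7. By gene RPKM the other neighbouring ranges were separate, and within every library the higher gene of each neighbouring pair was above the lower one.

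**Figure D1:**
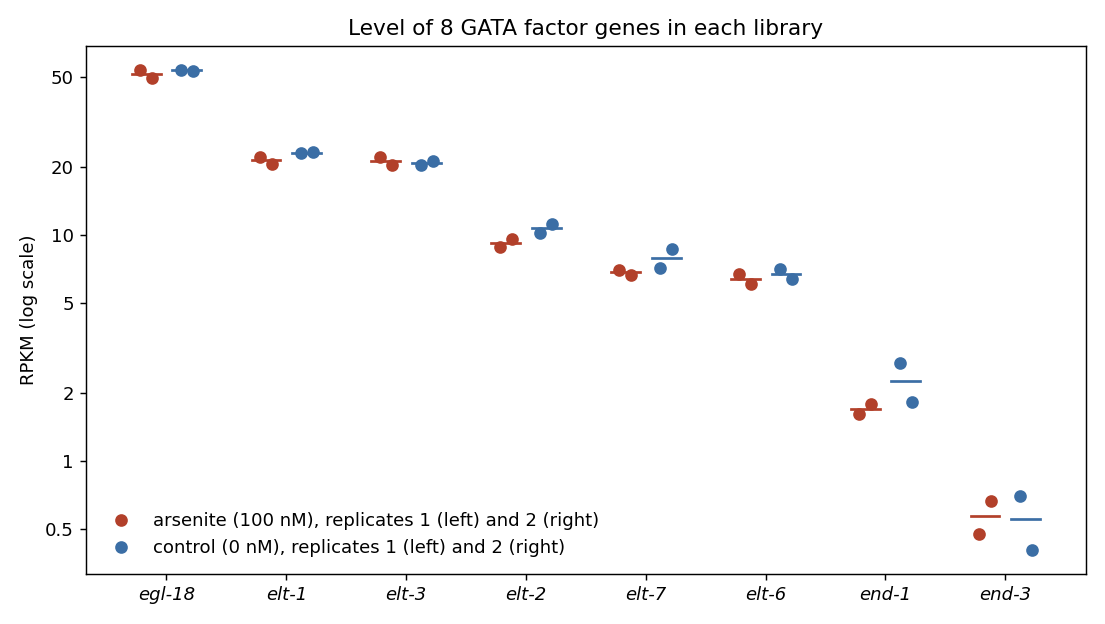
The plot gives the deposited RPKM (log axis) of each of the 8 GATA factors in every library, with arsenite points left of control points. Levels run from 53.9 and 49.8 RPKM for egl-18 in arsenite to 0.474 and 0.662 RPKM for end-3 in arsenite.

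The genes lie on chromosomes IV, V and X, all on the plus strand of WBcel235. On chromosome IV, egl-18 (WBGene00001186, 1902322 to 1917840) ends 136 bases before elt-6 (WBGene00001253, 1917977 to 1921643) begins, and elt-1 (WBGene00001249) lies apart at 9614995 to 9620280. On chromosome V, end-1 (WBGene00001310, 13985128 to 13987074) and end-3 (WBGene00001311, 14014695 to 14015980) are 27620 bases apart with 4 protein-coding genes between them, and elt-7 (WBGene00015981) lies at 4770670 to 4773086. The X chromosome carries elt-2 (WBGene00001250, 10481240 to 10483441) and elt-3 (WBGene00001251, 13934874 to 13941216). Only end-3 shares exon bases with another annotated gene, 3 bases with srh-308 on the opposite strand. The library kit did not mark strand, so reads over those bases cannot be assigned to one of the 2 genes.

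ELT-1 is the factor at the head of the epidermal programme. It had 22.3 and 20.6 RPKM in arsenite libraries, against 23.02 and 23.2 RPKM in control libraries. Scaled by TMM, which corrects for differences in RNA composition, the counts were 2345 and 2219 in arsenite and 2349.6 and 2437 in control. Both arsenite values were below both control values, though arsenite replicate 1 by only a few counts. The log2 fold change was -0.07 with a standard error of 0.068 and a 95% interval of -0.22 to 0.084 (adjusted p = 0.93 by edgeR quasi-likelihood). The table splits elt-1 into transcripts whose lengths, worked out from reads and RPKM, are 1947 and 1260 nucleotides. The longer had 1238 and 1253 reads in arsenite and 1343 and 1241 in control, and the shorter 1035 and 1070 reads in arsenite and 1121 and 1039 in control. In all 4 libraries the shorter transcript had 83.5% to 85.4% of the reads of the longer one, and this share overlapped between the groups. Where the transcripts share exons, a read can have been counted for both.

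ELT-3 is expressed in the main body epidermis. It had 22.2 and 20.4 RPKM in arsenite libraries, against 20.5 and 21.3 RPKM in control libraries. The TMM-scaled counts were 915 and 862 in arsenite and 818 and 872 in control, and the groups overlapped. Of the 8 genes, elt-3 and end-3 had a positive log2 fold change, 0.07 for elt-3 with a standard error of 0.082 and a 95% interval of -0.11 to 0.26 (adjusted p = 0.941 by edgeR quasi-likelihood). With each library left out in turn this value ran from 0.024 to 0.12.

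EGL-18 was the most abundant of the 8 and lay between the 86.4th and 87.5th percentile of RPKM over all genes. It had 53.9 and 49.8 RPKM in arsenite libraries, against 53.95 and 53.4 RPKM in control libraries. The TMM-scaled counts of 2932 and 2771 in arsenite enclosed the control values of 2842 and 2890.3. The log2 fold change was -0.01 with a standard error of 0.066 and a 95% interval of -0.16 to 0.14 (adjusted p = 0.994 by edgeR quasi-likelihood). This is the narrowest interval of the 8. It spans 0.898 to 1.10 times the control level and covers only the scatter of these libraries.

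ELT-6 is encoded directly downstream of egl-18 and acts with it in the seam. It had 6.73 and 6.07 RPKM in arsenite libraries, against 7.08 and 6.40 RPKM in control libraries. The TMM-scaled counts were 332 and 307 in arsenite and 339 and 314 in control. The groups overlapped, and the log2 fold change was -0.03 with a standard error of 0.11 and a 95% interval of -0.28 to 0.21 (adjusted p = 0.979 by edgeR quasi-likelihood). The RPKM of egl-18 was 8.01 and 8.20 times that of elt-6 in arsenite and 7.62 and 8.35 times in control. This ratio, too, overlapped between the groups.

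ELT-2 is the main regulator of the differentiated intestine. It had 8.89 and 9.65 RPKM in arsenite libraries, against 10.2 and 11.2 RPKM in control libraries. The TMM-scaled counts were 451 and 502 in arsenite and 503 and 567 in control. Both arsenite values lay below both control values, but the higher arsenite value was within 1 count of the lower control value. The log2 fold change was -0.16 with a standard error of 0.10 and a 95% interval of -0.40 to 0.070 (adjusted p = 0.829 by edgeR quasi-likelihood). It ran from -0.25 to -0.076 with each library left out in turn.

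ELT-7 works together with ELT-2 in the intestine. It had 7.003 and 6.66 RPKM in arsenite libraries, against 7.14 and 8.66 RPKM in control libraries. The TMM-scaled counts were 361 and 352 in arsenite and 357 and 445 in control, so that only control replicate 2 stood away from the other libraries. The log2 fold change was -0.17 with a standard error of 0.12 and a 95% interval of -0.44 to 0.11 (adjusted p = 0.878 by edgeR quasi-likelihood), and without control replicate 2 it was -0.0012. Its transcripts of 843 and 727 nucleotides differed by 2 to 8 reads in each library, with 176 and 187 reads for the longer in arsenite and 191 and 211 in control. Their counts are therefore close to copies of each other, and the gene count exceeds the number of separate reads.

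END-1, which commits cells to endoderm, was measured at low depth. It had 34 and 42 reads in arsenite libraries and 60 and 37 reads in control libraries. The exact Poisson 95% intervals, which cover counting error only, were 23.6 to 47.5 and 30.3 to 56.8 reads in arsenite, and 45.8 to 77.2 and 26.1 to 51 reads in control. The groups overlapped, and control replicate 1 was the high library. The log2 fold change of -0.37 had a standard error of 0.25 and a 95% interval of -0.94 to 0.20 (adjusted p = 0.858 by edgeR quasi-likelihood), and without control replicate 1 it was -0.072.

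END-3, the partner of END-1, had the fewest reads, 11 and 17 in arsenite libraries and 17 and 9 in control libraries. Its groups overlapped entirely. The log2 fold change was 0.08 with a standard error of 0.41 and a 95% interval of -0.83 to 0.997 (adjusted p = 0.987 by edgeR quasi-likelihood). This interval spans 0.564 to 1.995 times the control level, and changes within it cannot be told from none at this depth. Both end genes are known from the early embryo, and adult hermaphrodites carry embryos. Markers of zygotic embryonic transcription summed to 53.9 and 53.1 RPKM in arsenite and 55.3 and 56.1 RPKM in control over the 9 of 10 listed genes that were found, none at 0 reads in any library, and both arsenite sums were below both control sums. Such a sum carries no composition scaling and is weighted towards the abundant markers. Of these, hlh-1 had 1349 and 1187 TMM-scaled counts in arsenite and 1247 and 1459 in control, which overlapped. Whether its RNA came from embryos or from adult tissue was not tested, so the sum may not report embryos alone. The groups also overlapped for tbx-37, with 37.1 and 40.13 TMM-scaled counts in arsenite and 40.05 and 58.8 in control. The part of embryos in the end-1 and end-3 values was not tested.

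**Figure D2:**
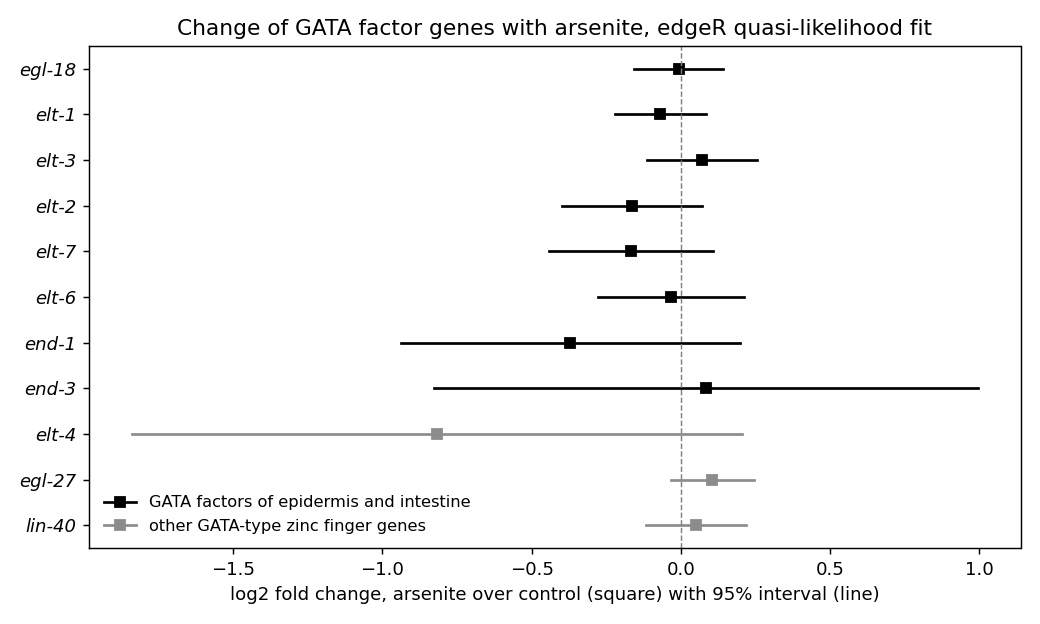
The plot gives the log2 fold change (arsenite over control) of each of the 8 GATA factors from edgeR's quasi-likelihood fit, with bars for the 95% interval. The relatives elt-4, egl-27 and lin-40 are drawn below them in grey. Every bar crosses 0. Among the 8, the narrowest bar is that of egl-18 (-0.16 to 0.14) and the widest that of end-3 (-0.83 to 0.997). The bar of elt-4 is wider still (-1.84 to 0.21).

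Over the 8 genes, 6 had a negative log2 fold change, where 48.2% of all genes tested did, though that of egl-18 turned positive with a correction for transcript length. Of the 8, 2 had both arsenite values below both control values, where 19.1% of all genes did, and 0 had both above, where 17.1% did. The 2 separated genes were elt-1 and elt-2, and the other 6 overlapped. Apart from the thinly covered end-1, the 2 intestinal factors had the most negative log2 fold changes of the 8. They were -0.16 for elt-2 and -0.17 for elt-7. This order rests on control replicate 2. Without that library elt-2 had -0.076 and elt-7 -0.0012, while the seam factor elt-6 had -0.084. The difference between intestinal and epidermal factors was not tested.

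Ratios between the genes within a library do not depend on the scaling of that library. The RPKM of elt-1 was 1.001 and 1.01 times that of elt-3 in arsenite, against 1.12 and 1.09 times in control. By this gene RPKM the 2 epidermal factors were level in arsenite, while elt-1 was slightly ahead in control. Which of them is ahead depends on the elt-1 transcript taken. By the RPKM of its longer transcript, elt-1 was below elt-3 in both arsenite libraries and on either side of it in control. By that of its shorter transcript, elt-1 was above elt-3 in every library. The ratio of egl-18 to elt-1 was 2.42 in both arsenite libraries, against 2.34 and 2.30 in control. Between the intestinal factors, the ratio of elt-2 to elt-7 was 1.27 and 1.45 in arsenite and 1.43 and 1.30 in control, and the groups overlapped. The ratio of end-1 to end-3 was 3.38 and 2.70 in arsenite, against 3.86 and 4.50 in control, and rests on the low counts of both genes. Between the tissues, elt-3 was 2.50 and 2.12 times elt-2 in arsenite, against 2.01 and 1.90 times in control. Of the 28 possible pairs of the 8 genes, 6 (21.4%) had ratios that did not overlap between the groups, where 37.8% of all pairs of tested genes did. With 2 libraries a group these ratios are descriptions, and they were not tested.

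**Figure D3:**
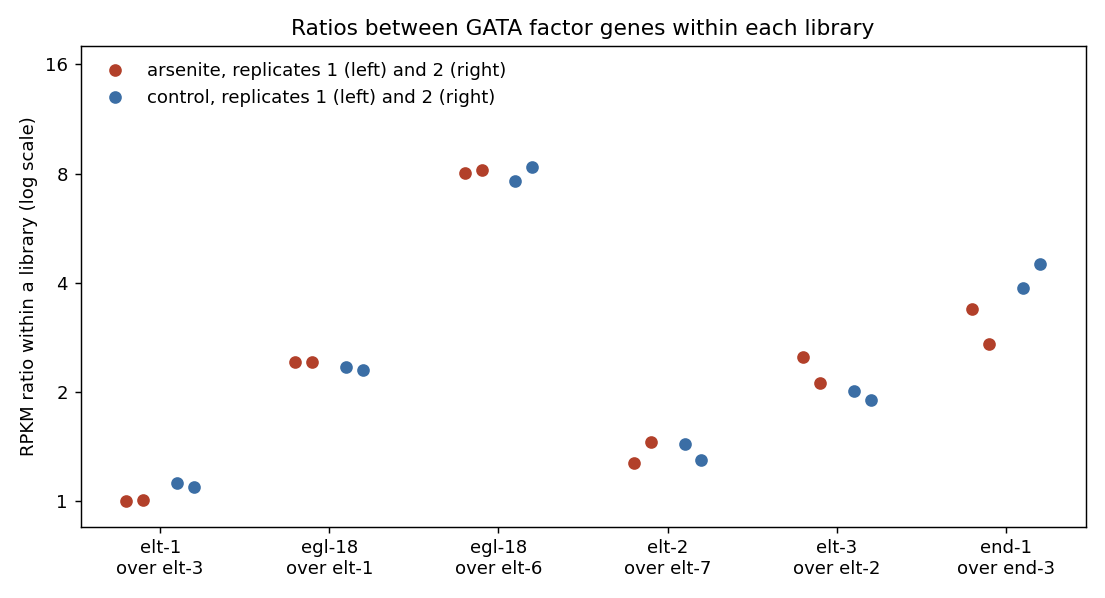
The plot gives the ratio of RPKM between GATA factors (log axis) in each library for 6 pairs, with arsenite points left of control points. The ratio of egl-18 to elt-6 stays between 7.62 and 8.35 in all libraries, while the ratio of elt-1 to elt-3 is 1.001 and 1.01 in arsenite and 1.12 and 1.09 in control.

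Summed over the 8 genes, RPKM was 123 and 116 in arsenite and 125 and 126 in control. The epidermal and seam factors elt-1, elt-3, egl-18 and elt-6 made up 85.4% and 83.8% of that sum in arsenite and 83.4% and 82.5% in control. The intestinal factors elt-2 and elt-7 held 12.9% and 14.1% in arsenite and 13.9% and 15.7% in control, and end-1 with end-3 held 1.69% and 2.12% in arsenite and 2.71% and 1.76% in control. The epidermal share was thus slightly above control in both arsenite libraries, and the other shares overlapped between the groups. None of these shares was tested.

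Relatives with a GATA-type zinc finger were read from the same fit. ELT-4, a short close relative of ELT-2 encoded 5280 bases before it on the X chromosome, had 5 and 7 reads in arsenite libraries and 11 and 10 in control libraries. It passed the filter on low counts only through the control libraries, and its log2 fold change was -0.82 with a standard error of 0.46 (adjusted p = 0.792 by edgeR quasi-likelihood). EGL-27, which like LIN-40 resembles the MTA1 chromatin protein, had 78.9 and 75.7 RPKM in arsenite and 77.3 and 70.8 RPKM in control, with a log2 fold change of 0.11 and a standard error of 0.062 (adjusted p = 0.803 by edgeR quasi-likelihood). LIN-40 had 63.8 and 57.9 RPKM in arsenite and 57.5 and 63.4 RPKM in control, a log2 fold change of 0.05 with a standard error of 0.075 (adjusted p = 0.949 by edgeR quasi-likelihood). The med-1 and med-2 genes, direct activators of the end genes, had 0 to 2 reads in every library and did not pass the filter. They are near-identical copies, so reads that fit both can be lost or misplaced among uniquely mapped reads.

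The wider endoderm specification pathway, with SKN-1, Wnt and maternal regulators, showed no called gene. Of 17 listed genes 16 were tested, 3 had a negative log2 fold change, the values ran from -0.097 to 0.14, and the median was 0.05. In 6 of the 16 both arsenite values were above both controls, where 17.1% of all genes were, and in 0 both were below. The smallest p of the list belonged to pie-1, a maternal repressor of transcription in germline blastomeres, with a log2 fold change of 0.14 and a standard error of 0.072 (adjusted p = 0.759 by edgeR quasi-likelihood). The other genes named by the smallest p were gsk-3, a Wnt pathway kinase, at -0.10, cbp-1, a histone acetyltransferase, at 0.08, and apr-1, the APC homologue, at 0.07.

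Genes of the differentiated intestine, many of them known targets of ELT-2, were tested in 25 of 27 listed cases. Of these, 2 had an unadjusted p under 0.05 and were higher in arsenite, 2 had one and were lower, and 14 had a negative log2 fold change, where 2.16%, 5.05% and 48.2% of all genes did. The median of -0.03 turned to 0.038 without arsenite replicate 1, and leaving out control replicate 2 or 1 turned it to 0.020 or 0.0040. The higher ones were mtl-2, a metallothionein of the gut, at 0.61 with a standard error of 0.19 (adjusted p = 0.433 by edgeR quasi-likelihood), and vit-4, a yolk protein, at 0.16. The lower ones were ifb-2, an intermediate filament of the gut lumen, at -0.20 with a standard error of 0.061 (adjusted p = 0.422 by edgeR quasi-likelihood), and eps-8, a microvillus protein, at -0.15. The TMM-scaled counts of mtl-2 were 615 and 1032 in arsenite and 528 and 550.5 in control, and without arsenite replicate 2, the high library, its log2 fold change was 0.19. It was called only without arsenite replicate 1 and ifb-2 only without control replicate 1. On chromosome V, mtl-2 lies 2289 bases after end-3 on the opposite strand, with no protein-coding gene wholly between them.

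Other regulators of epidermis and seam held 11 tested genes of 13, none with an unadjusted p under 0.05, and a median of -0.02, which was 0.022 without arsenite replicate 1. The genes with the smallest p were nhr-25, a nuclear receptor of the epidermis, at -0.11, blmp-1, a zinc finger factor, at -0.09, tbx-8, a T-box factor, at 0.16, and lin-22, a seam patterning repressor, at -0.21. None of them was called in any fit.

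Epidermal structural and cuticle genes, which encode the collagens and secreted proteins of the skin, had values spread more widely around 0, between -0.94 and 0.54. Of 21 tested genes 18 had a negative log2 fold change, 5 had an unadjusted p under 0.05 and were lower in arsenite, and 1 had one and was higher, where 5.05% of all genes tested were lower at such a p and 2.16% higher. The median was -0.10. In 13 of the 21 both arsenite values were below both controls, where 19.1% of all genes were, and the RPKM of the 22 listed genes summed to 996 and 973 in arsenite and 1044 and 1046 in control. Both arsenite values of elt-1 were also below control, replicate 1 by only a few counts, while elt-3, egl-18 and elt-6 overlapped between the groups. The part of epidermal RNA content in these values was not tested. The collagen sqt-1 had 65.0 and 62.1 TMM-scaled counts in arsenite, against 111 and 135 in control, a log2 fold change of -0.94 with a standard error of 0.18 (adjusted p = 0.227 by edgeR quasi-likelihood). The collagen rol-6 had 114 and 91.7 in arsenite, against 145 and 165 in control, with a log2 fold change of -0.59, and wrt-2, a hedgehog-related protein, had -0.26. The antimicrobial peptide gene nlp-29 had 851 and 1096 in arsenite, against 750.5 and 586 in control, a log2 fold change of 0.54 with a standard error of 0.14 (adjusted p = 0.319 by edgeR quasi-likelihood). The exact test of edgeR called sqt-1 lower and nlp-29 higher, and the quasi-likelihood test called both without arsenite replicate 1, and both with the collagen sqt-3 without control replicate 1. With all 4 libraries, filtered counts and exposure as the only term, the quasi-likelihood test called none of them, and whether they differed from the GATA factors was not tested.

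**Figure D4:**
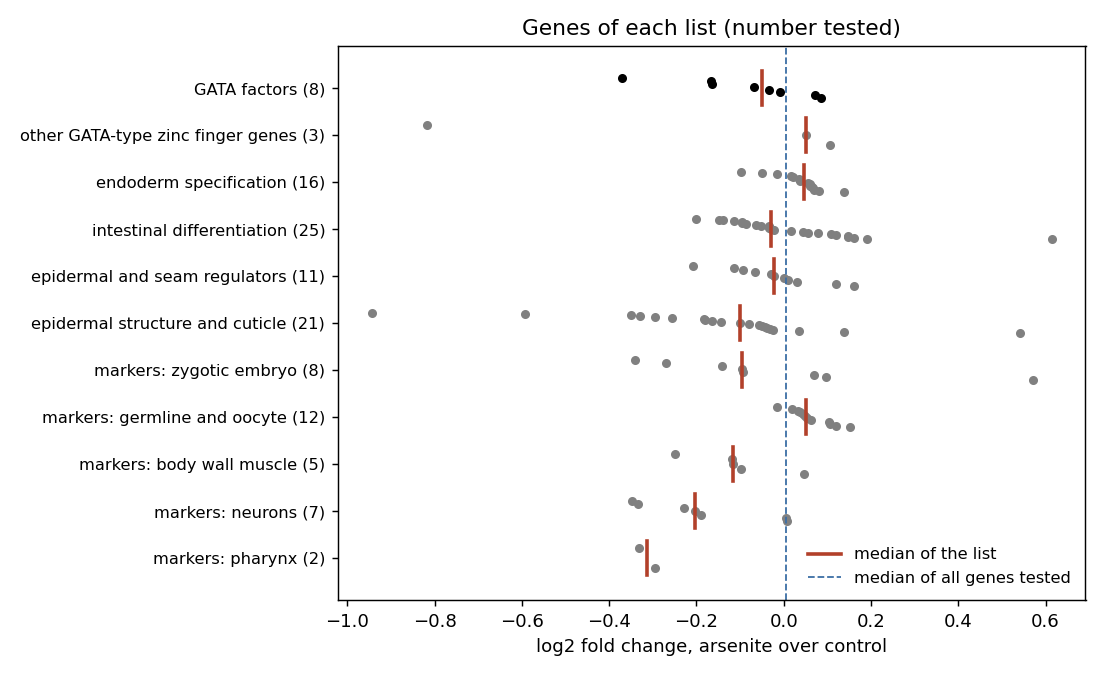
Each point is the log2 fold change (arsenite over control) of 1 tested gene from edgeR's quasi-likelihood fit, by gene list, with the list median as a bar and the median of all genes tested as a dashed line. The 8 GATA factors lie between -0.37 and 0.08, while the epidermal structure list reaches -0.94 for sqt-1 and 0.54 for nlp-29.

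The genes whose profile over the 4 libraries was nearest to those of the 2 most abundant GATA factors were found by the Euclidean distance between log2 deviations from the gene mean. For egl-18 these were C01G5.6, acdh-3 and lec-9, at distances of 0.0156, 0.0162 and 0.0181 among 3047 genes of similar count. For elt-1 they were Y54E10A.6, rer-1 and wrs-1, at distances of 0.0189, 0.0217 and 0.0228 among 3229 genes. The profiles of egl-18 and elt-1 themselves spanned only 0.0815 and 0.135 on the log2 scale, so that many genes with little variation lie close to them, and the likeness is a description over 4 libraries.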

How the data were processed

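Messenger RNA of whole N2 adults was sequenced in 2 arsenite and 2 control libraries with reads of 76 bases. The authors mapped uniquely placed reads with Bowtie and assigned them with a RefSeq annotation. CASAVA and the build WBcel235 stand in the submitters' processing notes. Tool versions: not given in the sources used here. Counts, as whole numbers, and RPKM were deposited for 19912 genes and 23858 transcripts. Every gene count equals the sum over its transcripts. Transcript lengths and the reads behind RPKM were worked out here from the deposited counts and RPKM. The lengths for the GATA factors matched no transcript of the same gene in Ensembl's WBcel235 annotation. For elt-1 and elt-7 gene RPKM divides these reads by the summed length of the transcripts. RPKM also divides by mapped reads, without composition scaling. Reads per library, 30583832 to 35218389, limit the precision of low counts.

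Gene counts were tested with edgeR 4.0.16 in R 4.3.3 (filterByExpr with at least 10 counts, at least 15 in total, then TMM, glmQLFit with a prior count of 0.125, glmQLFTest, Benjamini-Hochberg at 0.05 over 13776 genes). Standard errors and 95% intervals come from the F value and its degrees of freedom. The biological coefficient of variation was 6.06%. Loci and overlaps between exons were taken from Ensembl's WBcel235 annotation. The share of non-overlapping ratios over all pairs of tested genes was added after the data were seen. Scripts were tested on simulated data. No sequences are shown.

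The 8 genes and all lists were chosen with earlier results of these data known, though the rule for the 8 uses gene names only. Text names every member, the other GATA-type genes, up to 4 genes of each list with the smallest p, listed genes called by any test, and the 3 nearest profiles of the 2 most abundant members. Alternative settings were the exact and likelihood ratio tests of edgeR, DESeq2 1.42.0, other scalings and filters, robust fitting, the transcript table, a length correction, a replicate block, log2(RPKM + 0.1) and log2(RPKM + 1) in limma 3.58.1, and leaving out each library.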

Additional observations from a re-analysis of the deposited data

How the results depend on the processing

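None of the 8 GATA factors was called under any of the 18 alternatives run, with 6 of them tested at a minimum count of 50, since end-1 and end-3 did not pass it. Log2 fold changes with each library left out ran from -0.11 to -0.029 for elt-1, -0.25 to -0.076 for elt-2, 0.024 to 0.12 for elt-3, -0.32 to -0.0012 for elt-7, -0.60 to -0.072 for end-1, -0.088 to 0.025 for elt-6, -0.046 to 0.033 for egl-18 and -0.22 to 0.52 for end-3. The sign of the last 3 thus turned with 1 library, and that of egl-18 also with a length correction (0.0148, and 0.0146 with the replicate block). The value of elt-7 was nearest to 0 without control replicate 2, and that of end-1 without control replicate 1. With each library left out the median of the 8 ran from -0.088 to -0.047, and over the 17 alternatives with a median from -0.093 to -0.028. Over all genes, calls higher and lower in arsenite were 0 and 0 in the quasi-likelihood test, 54 and 85 by the exact test, 58 and 99 by the likelihood ratio test, 8 and 22 by DESeq2, and 35 and 44 with no filter on low counts. With each library left out they ran from 1 to 121 higher and from 1 to 72 lower. Libraries with the same replicate number shared little deviation from their group means (correlation 0.0487 over 13776 genes). This cannot decide whether replicate numbers pair the samples, since counting noise in low counts also draws the correlation towards 0. With the replicate block 30 genes were called higher and 50 lower, or 24 and 52 with the length correction as well. Outside the GATA factors, sqt-1 and myo-2 were called with the replicate block and with no filter. The causes of these differences were not tested. RPKM in place of counts, other scalings, a minimum count of 50, robust fitting, length correction alone and the transcript table gave 0 calls. Depth limits end-1 and end-3 most, whose standard errors were 0.25 and 0.41.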

Other observations

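Markers of other cell types were read from the same quasi-likelihood fit, and 0 were called at an adjusted p under 0.05. Of the 8 tested markers of zygotic embryonic transcription, none had an unadjusted p under 0.05 and the median log2 fold change was -0.10, but -0.0078 without arsenite replicate 1 and -0.030 without control replicate 2. The 4 with the smallest p, sdz-1 at 0.57, sdz-38 at -0.27, tbx-37 at -0.34 and sdz-28 at 0.10, were embryonic genes with values on either side of 0. The 7 neuronal markers had a median of -0.20, which was -0.080 without control replicate 1. Of the 7, 3 were lower in arsenite at an unadjusted p under 0.05, where 5.05% of all genes were, among them egl-21, a neuropeptide processing enzyme, at -0.20 and rab-3, a synaptic vesicle protein, at -0.33. Both tested pharyngeal muscle markers were lower at an unadjusted p under 0.05, myo-2, the pharyngeal myosin, at -0.33 with a standard error of 0.06 (adjusted p = 0.202 by edgeR quasi-likelihood) and tnt-4, a troponin, at -0.30, and edgeR's exact test and DESeq2 called myo-2. Among 5 body wall muscle markers, myo-3 had -0.25 and the median was -0.12, running from -0.19 without control replicate 1 to -0.039 without control replicate 2. The 12 germline and oocyte markers had a median of 0.05, which ran from -0.0095 without control replicate 1 to 0.12 without control replicate 2, with 1 negative value, and glh-1, a germline helicase, had 0.15 at an unadjusted p under 0.05. Summed RPKM was 39.5 and 36.1 in arsenite and 50.6 and 46.3 in control for the pharynx, 249 and 241 in arsenite and 264 and 260.3 in control for neurons, and 839 and 789 in arsenite and 878 and 895 in control for body wall muscle. No listed marker that was found was at 0 reads in any library. The part of these cell types in the values of the GATA factors was not tested.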
